A study of Rattus norvegicus with 2 samples.

Results

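The enzymes that carry methionine to cysteine in rat liver, together with methyl-using and folate enzymes joined to that route, were followed on 2 oligonucleotide arrays. The set was Mat1a, Gnmt, Pemt, Gamt, Ahcy, Bhmt, Mthfd1, Cbs, Cth and Cdo1, taken as every probe set that the platform annotation gives to 1 of these 10 symbols alone. Each gene had 1 such probe set, so the set is 10 genes of the 10411 with a single symbol and of the 6012 that were measured. Total liver RNA came from SD rats given an AIN93G-based high-fat diet (1 array) or an AIN93G-based low-fat diet (1 array), and the labels of both arrays read 4 weeks of age and 9 weeks of feeding. The comparison asked which transcripts differed between the diets. The sources used here do not give the fat content, the sex of the rats or how many animals each RNA represents. Each diet had a single array, which allows neither a replicate check nor a test, so each difference describes these 2 RNA samples and carries no p-value.

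Methionine is activated in the liver to S-adenosylmethionine, the donor in most methylation reactions. Giving up its methyl group leaves S-adenosylhomocysteine and then homocysteine, which is either methylated again, with betaine or folate as the source, or condensed with serine and passed through transsulfuration to cysteine. The liver is a main site of this pathway, and cysteine made there feeds glutathione and taurine.

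Signals are the deposited linear intensities in arbitrary units. The median signal over 15866 probe sets, 14 on the high-fat and 15.7 on the low-fat array, was taken as that array's floor, and probe sets whose mean log2 signal reached the mean of both log2 floors were called measured. Ratios are log2 of high-fat over low-fat signal, centred on the median of the 7864 measured probe sets, which was -0.117 before centring. All 10 enzymes were measured, and the lowest signal of any of them on either array was 14.9 times the floor. A signal depends on its probes as well as on the transcript, so levels are compared between arrays and not between genes. The labelled tissue fitted its markers: 14 of 15 hepatocyte markers were measured, with a summed signal of 56929 on the high-fat and 56701 on the low-fat array, and 13 of the 14 were higher after centring, at a median of 0.13 (8 of 14 and 0.014 without centring), whereas none of the 10 lymphocyte and neutrophil markers on the array was.

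Cystathionine gamma-lyase (Cth) stood higher on the high-fat array and the folate enzyme Mthfd1 stood lower. After centring, the other 8 enzymes were within 1.16-fold between the diets. Of the 10, 2 were at least 1.5-fold different, 1 in each direction, against 9.8% of all measured probe sets, or 4.29% on the higher and 5.52% on the lower side. None reached 2-fold, against 1.68% of all measured probe sets. Among the 985 measured probe sets at least as bright as the dimmest of the enzymes, 3.76% were past 1.5-fold. With 10 genes, the count of 2 is too small to set the group apart from these shares. The median log2 ratio of the enzymes was -0.024, with 4 higher and 6 lower, beside 3004 higher and 3008 lower among all measured genes. In a piece of liver, fewer cells of a type and less RNA per cell cannot be told apart.

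**Figure D1:**
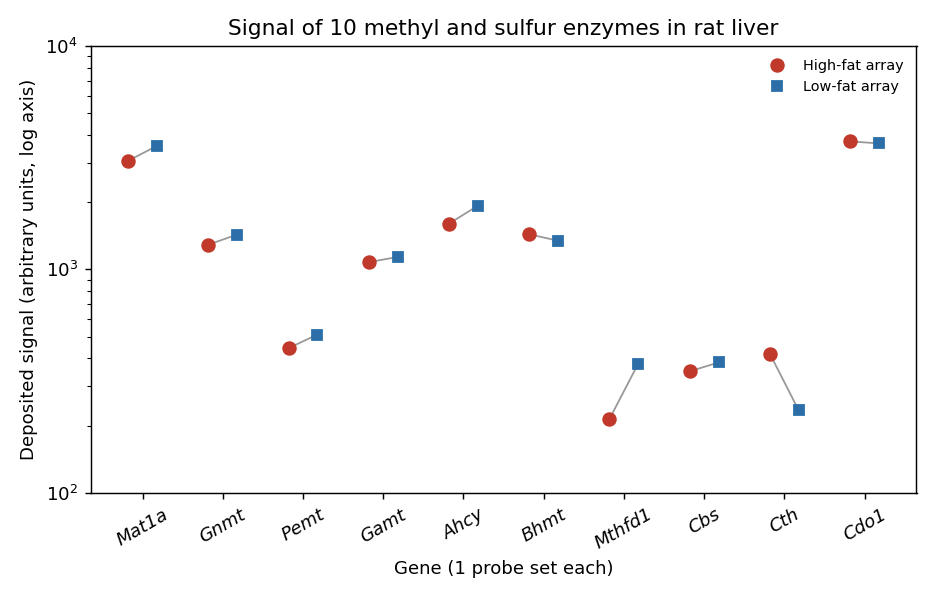
Deposited signal (log axis, arbitrary units) of the 10 enzymes on the high-fat array (red circles) and the low-fat array (blue squares), 1 probe set per gene and 1 array per diet, in the order of the pathway. The steepest joining lines belong to Mthfd1 (213.9 against 379.2) and Cth (419.1 against 234.1).

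Mat1a, which makes S-adenosylmethionine in the adult liver, had a signal of 3059.5 on the high-fat array and 3573.0 on the low-fat array. Its log2 ratio was -0.11. The signals were 219 and 228 times the floor, and the arrays differed by 1.08-fold after centring. Measured probe sets were ranked by mean signal into 10 equal bins, and of the 787 in the bin of Mat1a, 142 had a lower ratio and 644 a higher one.

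The set holds 3 methyltransferases that draw on this donor. Gnmt, which methylates glycine to sarcosine and so disposes of surplus S-adenosylmethionine, had 1290.3 on the high-fat and 1432.2 on the low-fat array, a log2 ratio of -0.034. Pemt, which turns phosphatidylethanolamine into phosphatidylcholine, a lipid needed for membranes and lipoproteins, had 444.1 on the high-fat and 511.4 on the low-fat array, a log2 ratio of -0.087. Gamt, which completes the synthesis of creatine from guanidinoacetate, had 1077.9 on the high-fat and 1136.6 on the low-fat array, a log2 ratio of 0.040. All 3 differed by at most 1.06-fold between the diets after centring. Each centred ratio was smaller than the robust SD of 0.171 among probe sets of similar signal. Without centring Pemt was at -0.20, or 1.15-fold lower on the high-fat array. The sign for Gamt turned with the scaling, with values of -0.077 without centring and -0.024 after quantile normalization.

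Ahcy, which splits S-adenosylhomocysteine into homocysteine and adenosine, had 1602.2 on the high-fat and 1928.6 on the low-fat array. Its log2 ratio of -0.15 was the lowest of the set after Mthfd1. It corresponds to 1.11-fold lower on the high-fat array, and 1.20-fold lower without centring. Bhmt, which returns homocysteine to methionine with betaine as the methyl donor, had 1435.5 on the high-fat and 1344.5 on the low-fat array. Its log2 ratio was 0.21, or 1.16-fold higher, and 151 of the 787 probe sets in its signal bin had a higher ratio. Ahcy had 99 probe sets of that bin below it. Which of these small ratios was past the robust SD of 0.171 depended on the scaling. With centring it was Bhmt. Without centring Bhmt was at 0.094, while Ahcy was at -0.27, Mat1a at -0.22 and Pemt at -0.20. Quantile normalization and loess gave the same picture for Bhmt, Ahcy and Mat1a, but put Pemt at -0.15 and -0.12.

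Mthfd1 encodes a cytosolic protein that interconverts folate-bound one-carbon units and joins formate to tetrahydrofolate. Its signal was 213.9 on the high-fat array and 379.2 on the low-fat array. The log2 ratio of -0.71 means 1.64-fold lower on the high-fat array, and 1.77-fold lower without centring. Only 10 of the 786 measured probe sets in the same signal bin had a lower ratio, and 249 of all 7864 did. Homocysteine can be methylated from folate or from betaine, and the enzymes of these supplies stood on opposite sides: the log2 ratio of Mthfd1 was lower than that of Bhmt by a difference of -0.92, a value that centring cannot alter.

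Transsulfuration has a pair of steps, and their enzymes differed between the arrays to unequal extents. Cbs, which condenses homocysteine with serine to cystathionine, had 350.0 on the high-fat and 383.3 on the low-fat array. Its log2 ratio was -0.014, and the sign turned to 0.012 when no floor was used. Cth, which cleaves cystathionine to cysteine and can also release hydrogen sulfide, had 419.1 on the high-fat and 234.1 on the low-fat array. Its log2 ratio was 0.96, or 1.94-fold higher on the high-fat array, and 1.79-fold higher without centring. In its signal bin 8 of 786 measured probe sets had a higher ratio, and 77 of all 7864 did. The log2 ratio of Cth exceeded that of Cbs by 0.97.

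The windows around the annotated starts of both transsulfuration genes are shown because Cth and Cbs catalyse consecutive steps and had unequal ratios. They run from 250 bases before to 50 bases after the start, 5′ to 3′ along the gene, and come from RefSeq on build GRCr8. Capitals mark every match on either strand to the GC box GGGCGG, the CCAAT box CCAAT and the E-box CACGTG. The Cth window lies at chr2:249661017-249661316 on the minus strand and the Cbs window at chr20:9733876-9734175 on the minus strand.
Cth: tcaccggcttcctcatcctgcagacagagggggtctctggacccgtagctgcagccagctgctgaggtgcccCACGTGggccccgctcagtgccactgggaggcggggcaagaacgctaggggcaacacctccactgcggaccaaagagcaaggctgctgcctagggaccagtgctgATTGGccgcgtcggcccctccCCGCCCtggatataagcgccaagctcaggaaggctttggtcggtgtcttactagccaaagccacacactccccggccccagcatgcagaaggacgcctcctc
Cbs: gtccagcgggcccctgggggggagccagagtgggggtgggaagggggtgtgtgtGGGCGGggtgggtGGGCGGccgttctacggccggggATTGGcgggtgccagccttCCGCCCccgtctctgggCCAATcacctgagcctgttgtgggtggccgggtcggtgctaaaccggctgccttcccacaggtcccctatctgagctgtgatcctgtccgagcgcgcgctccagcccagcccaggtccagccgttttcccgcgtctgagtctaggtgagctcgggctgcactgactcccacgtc

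The Cth window held 1 E-box, whose first base lies 178 bases before the start, and 1 GC box and 1 CCAAT box nearer to it. The Cbs window held 3 GC boxes, 2 CCAAT boxes and no E-box. Windows of 8 of the 10 enzymes were given, those of Mat1a, Gnmt, Bhmt, Ahcy, Cbs, Cth, Pemt and Gamt. Among these, 5 held a GC box, 5 a CCAAT box, 1 the TATA box TATAAA (Bhmt) and 1 an E-box (Cth). None held TGATGNAA, a form of the amino acid response element. Over 33469 promoter windows of the same length the shares were 33.1% for the GC box, 37.5% for the CCAAT box, 14.2% for the TATA box, 6.42% for the E-box and 3.98% for TGATGNAA. No 2 of these motifs overlapped in the printed windows. GC content was 65% in the Cth window and 69.7% in the Cbs window, with a median of 51.7% over all windows. A match describes letters only, and nothing on these arrays measured binding at either gene.

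Cdo1, which oxidises cysteine to cysteine sulfinate and so opens the way to taurine and sulfate, had 3738.8 on the high-fat and 3664.3 on the low-fat array. Its log2 ratio of 0.15 corresponds to 1.11-fold higher. The step after Cth did not share the ratio of Cth, and the difference between the log2 ratios of Cdo1 and Cth was -0.81.

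**Figure D2:**
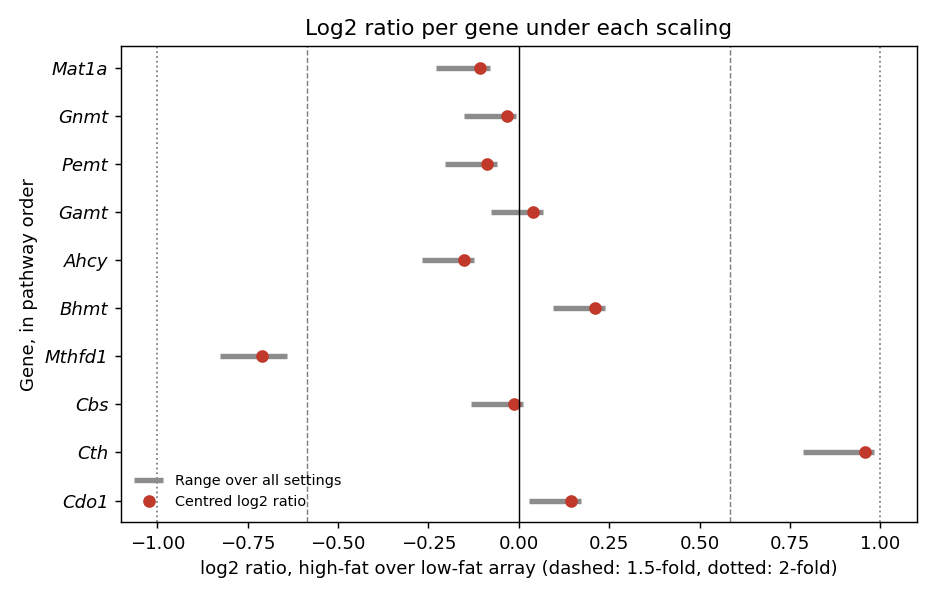
Centred log2 ratio, high-fat over low-fat, for each enzyme (red points), with grey bars from the lowest to the highest value over the centred result and 8 alternative settings. Dashed lines mark 1.5-fold and dotted lines 2-fold. Cth spans 0.79 to 0.98 and Mthfd1 -0.83 to -0.64, and the bars of Gamt and Cbs cross 0.

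How far a single probe set can be trusted was read from other genes, since each enzyme had only 1. On these arrays 38 genes had at least 2 probe sets as bright as the dimmest enzyme. The log2 ratios of the brightest pair differed by a median of 0.093, and by 0.263 at the 90th percentile. In 31 of the 38 pairs both ratios had the same sign, and in 0 pairs did they differ by the log2 equivalent of 1.5-fold, 0.58. The ratios of Cth and Mthfd1 were larger than these disagreements between probe sets, whereas those of the other 8 enzymes, from -0.15 to 0.21, were of their size. Mthfd1 was itself the dimmest enzyme by mean signal and Cth the next, so the pairs were as bright as Mthfd1 or brighter. The robust SD of the ratio was 0.228 in the signal bin of Cth and Mthfd1 and 0.171 in the brightest bin. Probe sets of 1 gene share the RNA and the array, so this scatter says nothing of the spread between animals.

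**Figure D3:**
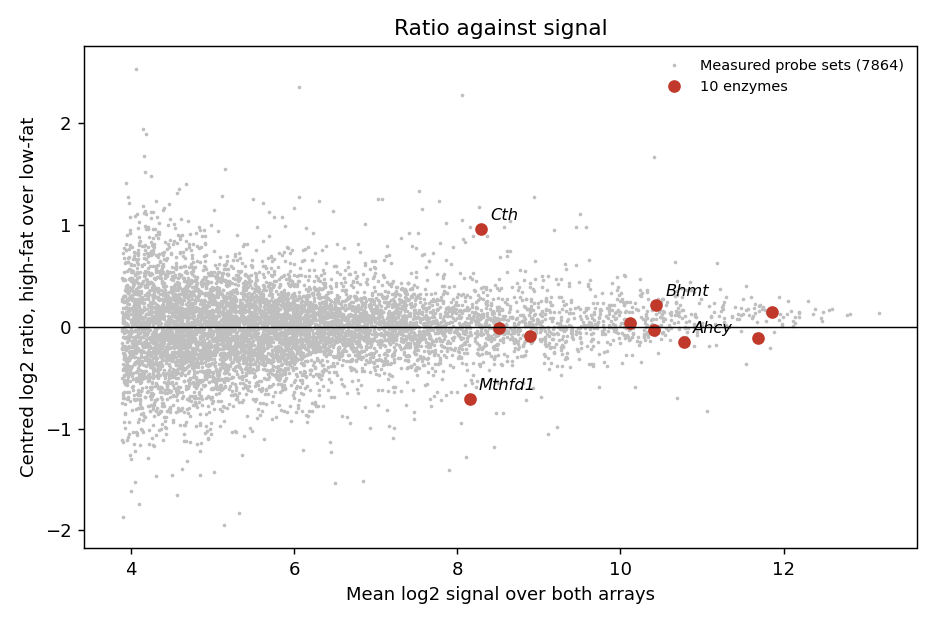
Centred log2 ratio against mean log2 signal over both arrays for the 7864 measured probe sets (grey) and the 10 enzymes (red). The enzymes lie in the 2 brightest of 10 signal bins, where the robust SD of the ratio was 0.228 and 0.171, and Cth at 0.96 and Mthfd1 at -0.71 lie at the edges of the cloud.

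The genes around the pathway were described from 11 lists, which pool to 135 genes, 107 of them on the array under a single symbol and 84 measured. Of the 84, 5 were past 1.5-fold on the higher side and 4 on the lower side, and the median log2 ratio was 0.014. Over all 6012 measured genes the shares were 4.22% on the higher side and 5.44% on the lower side. Where a gene has several probe sets, the brightest stands for it.

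Other folate genes did not share the ratio of Mthfd1. Their list holds folate carriers and receptors beside its enzymes. Of 24 listed genes 17 were on the array under a single symbol and 13 were measured. Of the 13, 8 were higher and 5 lower, with a median of 0.10 (6 higher, 7 lower and a median of -0.014 without centring). The lowest of the 13 was at -0.13, so none came near the -0.71 of Mthfd1. Atic, which uses a folate-bound formyl group late in purine synthesis, had 65.6 on the high-fat and 44.7 on the low-fat array, a log2 ratio of 0.67. Gldc, of the glycine cleavage system, had 95.6 on the high-fat and 70.5 on the low-fat array, a log2 ratio of 0.56. Slc19a1, the reduced folate carrier, was at 0.55 with a low-fat signal of 13.3, below the floor.

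Among other genes of methionine and homocysteine 5 of 10 were measured, 1 higher and 4 lower, with a median of -0.099 (0 higher, 5 lower and a median of -0.22 without centring). Mat2b, a regulatory subunit that works with Mat2a, the other methionine adenosyltransferase, was at -0.099. Ahcyl2, a relative of Ahcy, was at -0.30 and Mmachc, which processes cobalamin, at -0.41, both with signals under 25. The list for choline and betaine oxidation, which holds a choline transporter and general electron carriers beside its enzymes, had 4 higher and 3 lower of 7 measured, with a median of 0.0077 (-0.11 without centring). Etfdh, which passes electrons from sarcosine and dimethylglycine oxidation to the respiratory chain, was at 0.21. Sardh, which oxidises the sarcosine made by Gnmt, was at -0.14, while another probe set of it gave 0.096. The choline transporter gene Slc44a1 was at 0.19, and its other probe sets were at 0.62 and -0.076.

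The list for phosphatidylcholine synthesis holds genes of phosphatidylethanolamine and phosphatidylserine metabolism beside the choline route parallel to Pemt. Of its 9 measured genes 7 were higher and 2 lower, with a median of 0.15 (0.037 without centring). These values are therefore not of the choline route alone. Chka, the choline kinase that starts the choline route, had 46.5 on the high-fat and 22.7 on the low-fat array. It was 2.22-fold higher, at a log2 ratio of 1.15, on signals not far above the floor, and the value was 0.47 with a pseudocount of 50. Pcyt1a, which catalyses the next and rate-limiting step, had a negative ratio of -0.39, while a dimmer probe set of it gave 0.013. Cept1, of the last step, had 289.1 on the high-fat and 250.5 on the low-fat array, a log2 ratio of 0.32.

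Other methyltransferases that use S-adenosylmethionine were lower in 8 of 10 measured genes, with a median of -0.11 (-0.22 without centring), and the count was the same without centring, with quantile normalization and with loess. Inmt, which methylates small amines, had 49.4 on the high-fat and 95.1 on the low-fat array, a log2 ratio of -0.83. Dnmt1, the maintenance DNA methyltransferase, was at -0.72 with a high-fat signal of 12.9, below the floor. Coq5, of ubiquinone synthesis, was at 0.45. The other 6 that were lower lay between -0.15 and -0.09. Of the creatine genes only Gatm, which makes the substrate of Gamt, was measured, with 18.2 on the high-fat and 21.4 on the low-fat array, a log2 ratio of -0.12.

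Genes that dispose of cysteine and its sulfur had 3 higher and 6 lower of 9 measured, with a median of -0.059 (-0.18 without centring and -0.0071 with no floor). Got1, an aminotransferase that also acts on cysteine sulfinate, the product of Cdo1, had 407.6 on the high-fat and 872.5 on the low-fat array, a log2 ratio of -0.98. Csad, which decarboxylates the same product on the way to taurine, had 263.2 on the high-fat and 199.6 on the low-fat array, a log2 ratio of 0.52. Suox, which oxidises sulfite to sulfate, was at -0.34. Csad stood on the opposite side to Got1 and Suox under each of the 8 alternatives too.

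Glutathione synthesis is the other use of cysteine. Its list, which also holds a reductase and peptidases of glutathione turnover, had 2 higher and 4 lower of 6 measured genes. The median was -0.089 (-0.21 without centring). Gclm, the modifier subunit of the rate-limiting ligase, was at 0.28, and Gss, of the second step, at -0.18. Lap3, a peptidase that can split cysteinylglycine, had 36.7 on the high-fat and 21.0 on the low-fat array, a log2 ratio of 0.92. The serine and glycine list had 3 higher and 3 lower of 6 measured genes. Its lower side includes Gnpat at -0.13, an enzyme of ether lipid synthesis and not of serine or glycine. Psph, which completes serine synthesis, was at 1.08 with a low-fat signal of 11.4, below the floor. Agxt, which makes glycine from glyoxylate, was at 0.35 and Dao, a D-amino acid oxidase, at -0.44.

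The list for polyamines and methionine salvage had 7 higher and 4 lower of 11 measured genes, with a median of 0.25 (0.13 without centring). It holds polyamine breakdown genes and antizymes, which restrain synthesis, beside enzymes of synthesis. Of the latter, Odc1 was at -0.063, Amd1 at -0.12 and Srm at 0.27. Sat1, which acetylates polyamines for breakdown, had 328.1 on the high-fat and 257.4 on the low-fat array, a log2 ratio of 0.47. Paox, which oxidises the acetylated products, had 39.4 on the high-fat and 71.2 on the low-fat array, a log2 ratio of -0.74. Enoph1, of the salvage of methionine, was at 0.40, with 26.5 on the high-fat and 21.8 on the low-fat array. The amino acid response is a programme driven by the factor Atf4 that includes Cth in mouse cells. Of its 13 listed genes 11 were on the array under a single symbol, and 4 of these were not measured. Among the 7 measured, 6 were higher, with a median of 0.20. That count was 5 of 7 without centring or with quantile normalization, and the median was 0.078 without centring and 0.0069 with the floor at the 75th percentile. Atf5, itself a transcription factor of this programme, had 483.0 on the high-fat and 313.4 on the low-fat array, a log2 ratio of 0.74. The gene of the driving factor, Atf4, was at 0.020, and Cebpb, on the lower side, was at -0.18. The hormone gene Fgf21 was at 0.48, with 28.5 on the high-fat and 22.1 on the low-fat array. Trib3 was at 0.22 on its brightest probe set. Another Trib3 probe set was at 0.76 with a low-fat signal of 13.6, below the floor. The third, at -0.77 with 6.6 on the high-fat and 12.2 on the low-fat array, was not measured. A pseudocount of 50 shrinks the ratios of dim genes by construction. With it Lap3 was at 0.35, Atic at 0.35, Psph at 0.30, Fgf21 at 0.18 and Enoph1 at 0.15. On the lower side it left Inmt at -0.48, Paox at -0.38 and Dnmt1 at -0.16.

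**Figure D4:**
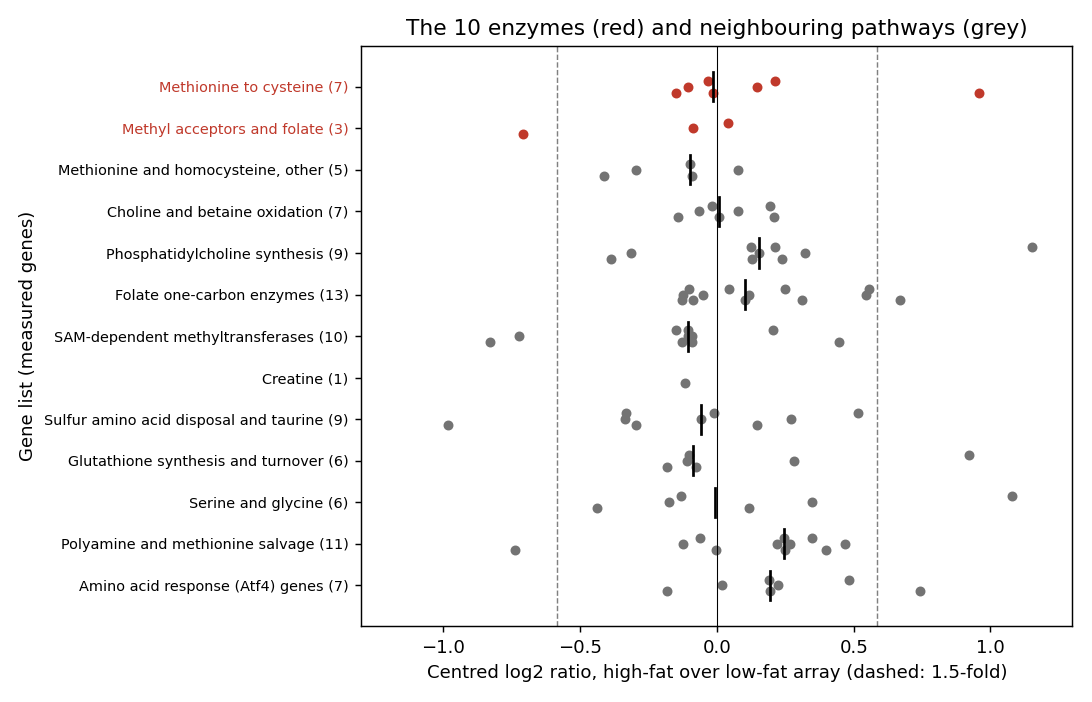
Centred log2 ratio (horizontal axis) of each measured gene in the 2 groups of enzymes (red) and in 11 neighbouring gene lists (grey), with the number of measured genes in brackets. Black bars are medians of lists with 5 or more genes and dashed lines mark 1.5-fold. Cth at 0.96 and Mthfd1 at -0.71 are the red points outside the dashed lines, and Chka at 1.15 and Got1 at -0.98 are the outermost grey points.

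Markers of liver zones and of other cell types were read beside these values. Their summed signals are as deposited, so they carry the shift of -0.117 between the arrays, while the medians are of centred log2 ratios. Of 11 periportal hepatocyte markers 9 were measured, with a summed signal of 10297 on the high-fat and 11470 on the low-fat array and a median log2 ratio of -0.0086. Of these 9, 3 were higher and 6 lower, from -0.84 to 0.48. Without centring 1 was higher and 8 lower, at a median of -0.13. The counts were also 1 and 8 with quantile normalization and with loess. Of 11 pericentral markers 6 were measured, with 6032 on the high-fat and 6381 on the low-fat array and a median of 0.15. Of 14 Kupffer and macrophage markers 10 were measured, with 1297 on the high-fat and 1480 on the low-fat array, 6 higher and 4 lower, and a median of 0.046 (-0.071 without centring). Of 10 endothelial markers 5 were measured, with 341.3 on the high-fat and 376.1 on the low-fat array and a median of -0.0056. Of 11 stellate cell markers, all on the array, 6 were measured and 5 were not. The 6 had 453.3 on the high-fat and 575.3 on the low-fat array and a median of -0.27. Of them 5 were lower, 2 past 1.5-fold, against 5.44% of all measured genes on that side. The lowest, at -1.06, was past 2-fold. The cholangiocyte list had 1 of 7 measured, and the red cell, adipocyte and pancreatic list 4 of 12, summing to 1512 on the high-fat and 1564 on the low-fat array. No marker on the array was at 0. The part of these markers in the ratios of Cth and Mthfd1 was not tested.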

How the data were processed

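Each probe set has 1 deposited signal intensity per array, taken as linear from values that are never negative and reach 9255.6 on the high-fat and 9119.2 on the low-fat array. How the authors made these intensities from the scanned images is not given in the sources used here. Of 15923 probe sets 57 controls were left out, and 12783 had 1 gene symbol in the platform annotation, 312 several and 2771 are unnamed here. Symbols were checked by Entrez identifier against RefSeq genes of GRCr8 (12748 matched, 0 changed), and older list symbols were matched through its synonyms.

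Ratios were taken as log2 of the deposited intensities without a pseudocount, leaving out 4 probe sets at 0 on an array, and their median over measured probe sets was subtracted. Each array was 1 sample, so no test was run, and the number of arrays limits the precision. A robust SD is the median absolute deviation scaled to a normal SD, within 10 equal bins of mean signal. From each list at most 3 measured genes with the largest absolute ratio are named, with all their probe sets. Odc1, Amd1, Srm, Atf4, Cebpb and Gnpat are named in addition, with the value of the brightest probe set. The enzymes and lists were chosen with earlier results of these data known. Alternatives were no centring, centring on 18 hybridization controls, quantile normalization, loess, floors at the 25th and 75th percentile, no floor, a pseudocount of 50, and for lists the median over probe sets. The procedure was tested on simulated data. Python 3.11.15, numpy 2.4.6, pandas 2.3.3, scipy 1.17.1, statsmodels 0.14.6 and matplotlib 3.10.9 were used.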

Additional observations from a re-analysis of the deposited data

How the results depend on the processing

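Under the 8 alternative settings all 80 values of the 10 enzymes moved from the centred value by less than the robust SD of their signal bin. No centring, control centring and the changes of floor shift all 10 enzymes by a common amount. The largest of these shifts, -0.117, is below the smallest robust SD of 0.171, so these settings could not have shown more. Only quantile normalization, loess and the pseudocount of 50 move enzymes separately. They put Cth at 0.95, 0.94 and 0.79 and Mthfd1 at -0.72, -0.72 and -0.64. The log2 ratio of Cth ran from 0.79 to 0.98 and that of Mthfd1 from -0.83 to -0.64, so both were past 1.5-fold and short of 2-fold in each setting. The sign was the same in every setting for 8 enzymes, and it turned for Gamt (-0.077 to 0.067) and Cbs (-0.13 to 0.012). The median of the 10 was -0.14 without centring and 0.0027 at the highest. Of the 10 pathway lists with 5 or more measured genes, 7 had a median of 1 sign in all settings, and the folate, choline oxidation and serine lists did not. Without centring the median of all measured genes was -0.117. Counts over all probe sets, which set the background, depended on the floor. At least 2-fold differences numbered 132, against 893 with the floor at the 25th percentile, 33 at the 75th percentile, 3469 with no floor and 10 with a pseudocount of 50. At least 1.5-fold differences numbered 771, against 2366, 214, 5579 and 79 under the same 4 alternatives. No paired analysis was possible because each diet had 1 array. Signals under about 25, as for Psph, Dnmt1, Mmachc and Slc19a1, were close to the floor, where the robust SD of the ratio reached 0.487. Chka, Lap3, Fgf21 and Enoph1 were also under 25 on the low-fat array.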
